A study of Mus musculus with 4 samples.

Results

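Lysosomal genes were examined in mouse embryonic fibroblasts that lacked or carried Med1. The set comprised 32 genes chosen by name for their lysosomal role, namely cathepsins and other peptidases, glycosidases, lipid-handling proteins, membrane proteins and the transcription factor gene Tfeb, out of 12393 named genes on the array. All 53 probe sets annotated to them were taken, of 22626 besides controls. Of the 32 genes, 28 had at least 1 probe set bright enough to test. Ctsf, Ctsk and Ctss were below the filter on dim signals, and no probe set was annotated to Cd63.

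The tested cells were Med1-/- p53-/- fibroblasts and their counterparts Med1+/+ p53-/- fibroblasts, with 2 arrays per genotype. All came from C57BL/6J embryos at embryonic day 10.0, and per the labels from a single cross of a Med1+/- p53-/- male with a Med1+/- p53+/- female, so both genotypes lacked p53. The cells were grown in medium with fetal calf serum. Med1 is a subunit of Mediator, the complex that connects DNA-bound transcription factors to RNA polymerase II. Whether the 2 arrays per genotype represent separate embryos or cultures is not stated in the labels. The p-values therefore measure the spread between these samples alone, and that spread may be technical. An effect of Med1 and any other difference between the source embryos cannot be told apart.

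Lysosomes are acidic organelles in which proteins, glycans and lipids are broken down. Their soluble hydrolases are made in the endoplasmic reticulum, tagged with mannose 6-phosphate in the Golgi and sorted to the lysosome, whose membrane is lined by heavily glycosylated proteins such as LAMP1 and LAMP2. TFEB, a basic helix-loop-helix factor, is known to bind E-box elements near the start of many lysosomal genes, and fibroblasts are a classic cell type in which lysosomal storage disorders are diagnosed.

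E-boxes, the 6-base palindrome CACGTG, were present near the start of several members, and these sites are shown because they are the kind of element TFEB is known to bind. RefSeq windows of 300 bases (250 before and 50 after the annotated start, GRCm38.p6) were found for 28 of the 32 genes, among them Cd63. CACGTG occurred in 10 of these 28 genes (35.7%), against 8.91% of 17492 protein-coding genes with a window. The longer palindrome TCACGTGA, which contains CACGTG, occurred in 4 (14.3%), against 1.41%, and its 10-base extension by a G in front and a C behind in 0 of 28, against 0.469%. All 3 motifs read the same on either strand. The sequences below run 5′ to 3′ on the strand of the gene, with CACGTG in capitals.
Lamp1, chr8:13159088-13159160, plus strand: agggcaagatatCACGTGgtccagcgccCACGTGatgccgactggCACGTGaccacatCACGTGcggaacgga
Mcoln1, chr8:3500436-3500491, plus strand: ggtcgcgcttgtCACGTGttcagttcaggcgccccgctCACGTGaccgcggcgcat
Gla, chrX:134601182-134601244, minus strand: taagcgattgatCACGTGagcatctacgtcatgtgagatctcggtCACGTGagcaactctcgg
Ctsa, chr2:164833749-164833772, plus strand: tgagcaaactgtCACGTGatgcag
Lgmn, chr12:102439124-102439153, minus strand: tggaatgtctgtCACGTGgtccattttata
Ctsl, chr13:64370739-64370768, minus strand: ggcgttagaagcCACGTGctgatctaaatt
Lamp1 held 4 E-boxes, beginning 61, 45, 28 and 15 bases before the start (written -61, -45, -28 and -15), and Mcoln1 held 2, at -71 and -45. Those of Gla lay farther out, at -227 and -194, and the single E-box of Ctsl lay at -236. Ctsd, Gaa, Glb1 and Ctsf also held the motif. A match describes these letters only and is not evidence of binding.

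The arrays differed in scale and the genotypes differed widely. Medians of the deposited signals were 36.1 and 51.4 for Med1-/- and 76.25 and 106.65 for Med1+/+ arrays, and signals were quantile normalized and taken as log2(signal + 1.7), a scale that understates the change of dim genes. Med1 itself, on the brightest of its 6 probe sets, had deposited signals of 25.4 and 40.2 in Med1-/- cells, against 664.6 and 885.6 in Med1+/+ cells (log2 change -3.57, SE 0.14, n = 2 each; adjusted p = 3.43e-05, limma with Benjamini-Hochberg adjustment). Across probe sets past the filter, arrays correlated at 0.981 within Med1-/-, 0.988 within Med1+/+ and 0.819 to 0.835 between genotypes. Of 8937 features, 75.9% were called (adjusted p under 0.05), 39.2% higher and 36.7% lower in Med1-/- cells. The 3′ to 5′ signal ratio of the Actb control was 1.28 and 1.22 on Med1-/- arrays, against 1.52 and 1.38 on Med1+/+ arrays, and that of the Gapdh control was 1.11 and 1.0, against 0.947 and 0.900; the part of RNA quality in the results was not tested.

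Lysosomal genes did not move as a block. Of the 28 tested, 15 (53.6%) were lower in Med1-/- cells, against 36.7% of all features, 7 (25%) were higher, against 39.2%, and 6 did not pass (limma, adjusted p over all 8937 features). Falls of over 3-fold were found for the cathepsin gene Ctsl, the acid ceramidase gene Asah1, the membrane protein gene Lamp2 and the cathepsin gene Ctsh, the size of the last being inexact because its Med1-/- signals were near the pseudocount. The highest values among the rises were those of Tfeb and the acid sphingomyelinase gene Smpd1. The median log2 change of the tested members was -0.28, against 0.08 for all features, and their median absolute change was 0.518, against 0.851. Falls of at least 2-fold were called for 8 members (19.9% of all features) and rises of at least 2-fold for 2 (21.5% of all features). The values of the genotypes did not overlap for 25 of 28 members (89.3%), against 88.6% of all features. Without Med1+/+ replicate 1 the number called lower was 9. In bulk RNA, fewer cells of a kind and less RNA per cell cannot be told apart.

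The call of lower held under every way of scaling the arrays for 9 of 28 members, near the 31.2% of 8799 features for which it did, and that of higher for 0 members, against 1.13% of features. The 9 genes called lower under all 6 scalings run were Ctsb, Ctsc, Ctsh, Ctsl, Gla, Asah1, Lipa, Lamp2 and Scarb2. The scalings were quantile normalization, equal array medians, equal 75th percentiles, the values as deposited, equal hybridisation controls and equal Bacillus subtilis control transcripts. The median change over all features under these was 0.08, 0.30, 0.11, -0.79, -0.83 and -1.72. In that sequence, 7, 10, 7, 0, 1 and 0 members were called higher and 15, 9, 10, 13, 23 and 27 lower. Among all features, at least 8799 under each scaling, 3499, 4054, 3529, 274, 1113 and 99 were called higher. Those called lower were 3282, 2746, 3189, 3939, 5483 and 7884. With array medians or 75th percentiles set equal, the share of members called lower was thus near that of all features. The share of calls that were higher among all features was 51.6%, 59.6%, 52.5%, 6.5%, 16.9% and 1.24% in the same sequence. Relative to the median of all features, the median of the members was -0.37 for quantile normalized values and lay between -0.12 and -0.08 for the remaining 5. The sign of a member's change relative to that median was the same under every scaling for 27 of 28 members, Gusb being the exception. Directions below are from quantile normalized values, and compare each member with the bulk of genes measured.

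**Figure D1:**
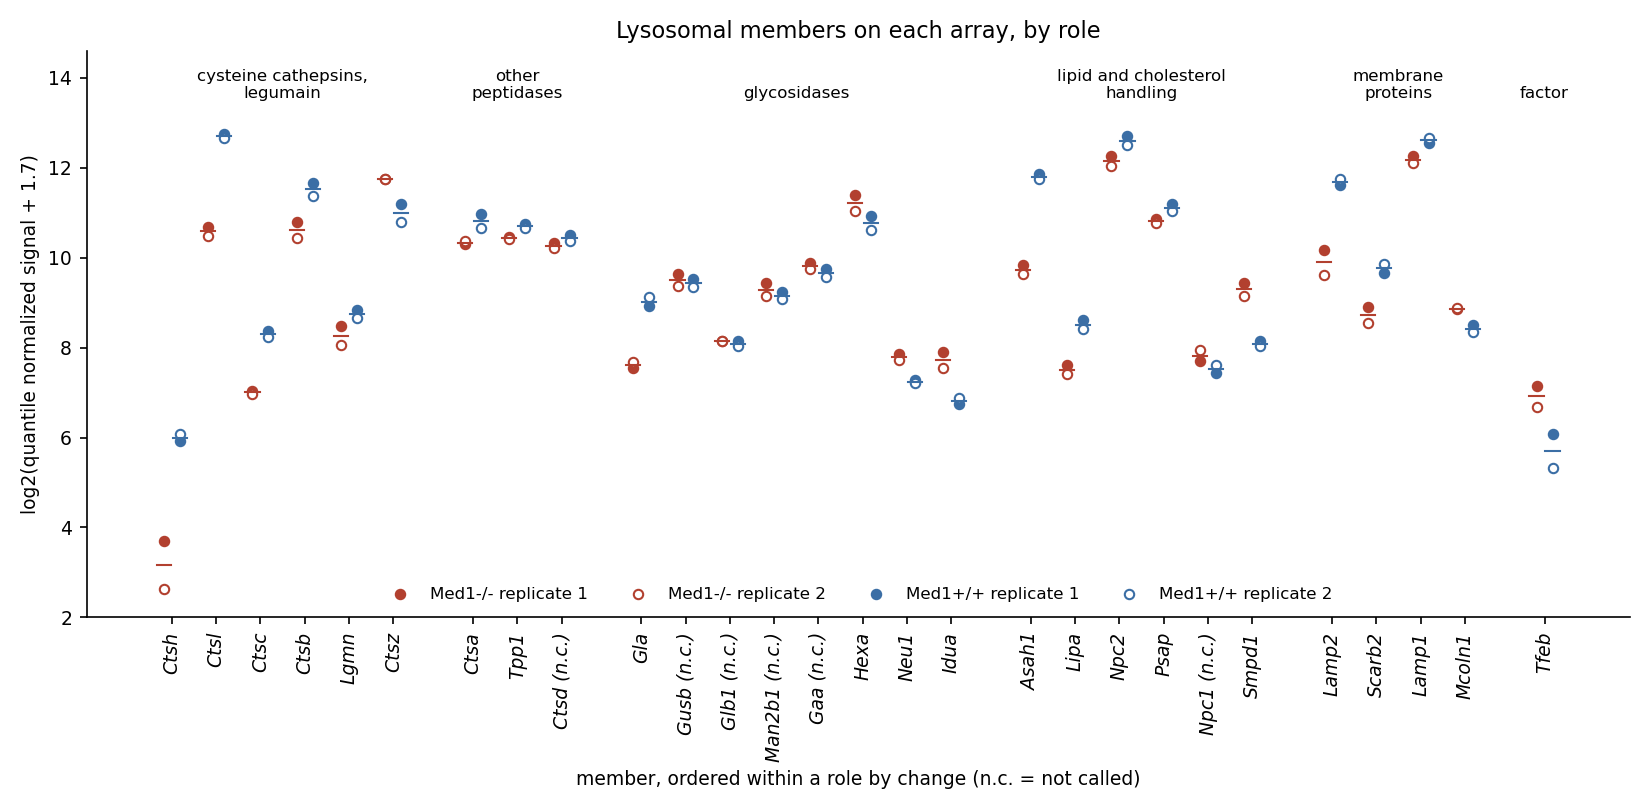
Level of each of the 28 tested members on each array, as log2(quantile normalized signal + 1.7) on the vertical axis, with members grouped by role on the horizontal axis. Red points are the 2 Med1-/- arrays and blue points the 2 Med1+/+ arrays, and short lines are genotype means. Ctsh, Ctsl, Asah1 and Lamp2 show the widest gaps, and members marked n.c. did not pass the test.

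Cysteine cathepsins are papain-like proteases that degrade proteins in the lysosome. With legumain counted among them, 5 of 6 tested members fell and 1 rose, where 36.7% of all features were lower and 39.2% higher. Ctsl, which encodes the broad endopeptidase cathepsin L, had deposited signals of 1035.8 and 1292.9 on the Med1-/- arrays, against 6855.8 and 8269.2 on the Med1+/+ arrays. Every Med1-/- value was far below every Med1+/+ value. Its mean log2 level was 10.6 ± 0.15 in Med1-/- and 12.7 ± 0.076 in Med1+/+ cells (SD, n = 2 each), a 4.34-fold fall (log2 change -2.12, SE 0.11; adjusted p = 3.43e-05, limma).

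Ctsh, which encodes an aminopeptidase among the cathepsins, had Med1-/- signals close to the bottom of the scale. Its deposited signal was 6.9 and 3.8 in Med1-/- cells, against 65.6 and 104.1 in Med1+/+ cells (log2 change -2.83, SE 0.50, n = 2 each; adjusted p = 0.00198, limma). Its Med1-/- signals lay near the pseudocount of 1.7, and it passed the filter through its Med1+/+ signals, so the size of this fall is inexact. The change was -1.73 with a pseudocount of 16, and Ctsh was below the filter at the 60th percentile and when either Med1+/+ array was left out. Ctsc, the activator of granule serine proteases in blood cells, had 70.1 and 96.4 in Med1-/- cells, against 353.5 and 451.6 in Med1+/+ cells, a 2.45-fold fall (log2 change -1.29, SE 0.13, n = 2 each; adjusted p = 0.00016, limma). For each of these 3 genes the genotypes did not overlap, with a single probe set behind each.

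Ctsb, which encodes the abundant cathepsin B, fell on its brightest probe set by 0.91 on the log2 scale (SE 0.16). Of its 4 probe sets 3 were called lower and the other one, at -0.52, did not pass (adjusted p = 0.062, limma over 13576 probe sets). Lgmn, the asparaginyl endopeptidase that processes other cathepsins, fell by 0.48 (adjusted p = 0.032, limma). Its change was -0.28 without Med1-/- replicate 2 (adjusted p = 0.147, limma), and the call was also lost without Med1+/+ replicate 1 (adjusted p = 0.138), without Med1+/+ replicate 2 (adjusted p = 0.0508) and with array medians set equal (-0.30, adjusted p = 0.135). Ctsz, a carboxypeptidase, went the other way. It had 2304 and 3421.7 in Med1-/- cells, against 2314.2 and 2522.8 in Med1+/+ cells, so the deposited signals overlapped and the rise of 0.76 (SE 0.14; adjusted p = 0.00235, limma) appeared after normalization. All 3 Ctsz probe sets were called higher, with changes of 0.76, 1.11 and 1.15, although the change of the gene was -0.70 on the Bacillus subtilis controls.

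The members below the filter were dim in both genotypes. Ctsk, the collagen-degrading cathepsin of osteoclasts, had deposited signals of 10 and 6.1 in Med1-/- cells, against 16.2 and 29.6 in Med1+/+ cells. Ctss, the cathepsin of antigen-presenting cells, had 1.6 and 1.4, against 0.3 and 3.2. Ctsf, another cysteine cathepsin, had 14.7 and 28.8, against 31.6 and 44.3. After normalization the genotypes overlapped for all 3.

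Peptidases of other catalytic types changed little. Ctsa, the serine carboxypeptidase that also protects the beta-galactosidase and neuraminidase complex, had 769.5 and 1188.6 in Med1-/- cells, against 1999.1 and 2333.5 in Med1+/+ cells. After normalization this was a log2 change of -0.48 (SE 0.13, n = 2 each; adjusted p = 0.0117, limma). The value of Ctsa was -0.11 with array medians set equal (adjusted p = 0.443, limma) and -0.33 without Med1+/+ replicate 1 (adjusted p = 0.0776), neither of which passed. Tpp1, a tripeptidyl peptidase, had 873 and 1225.8 in Med1-/- cells, against 1755.9 and 2325.9 in Med1+/+ cells, a log2 change of -0.26 (adjusted p = 0.0459, limma), and when each probe set was tested on its own neither of its 2 passed. The call of Tpp1 was lost when any of the 4 arrays was left out (adjusted p from 0.0863 to 0.220, limma). Ctsd, the main aspartic protease of the lysosome, changed by -0.18 and did not pass (adjusted p = 0.162, limma). With array medians set equal, Ctsd and Tpp1 had positive values of 0.18 and 0.10.

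Glycosidases, the enzymes that remove sugars from glycoproteins and glycolipids, had 3 of 8 members higher, 1 lower and 4 that did not pass, with a median log2 change of 0.14 (39.2% of all features were higher and 36.7% lower). Gla, the alpha-galactosidase lacking in Fabry disease, had 101.5 and 162.5 in Med1-/- cells, against 516.7 and 834.7 in Med1+/+ cells. This was a 2.65-fold fall with no overlap (log2 change -1.41, SE 0.13, n = 2 each; adjusted p = 0.000123, limma). Its dimmer probe set, below the filter, had 2.2 and 2.6 in Med1-/- cells, against 41.5 and 85.8 in Med1+/+ cells.

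Idua, which degrades dermatan and heparan sulfate, had 133.1 and 147.3 in Med1-/- cells, against 117.8 and 182.3 in Med1+/+ cells. The deposited signals overlapped, and after normalization Idua was higher by 0.92 (SE 0.17, n = 2 each; adjusted p = 0.00224, limma), with a second probe set at 0.92 as well. Neu1, the lysosomal sialidase, had 129.2 and 167.7 in Med1-/- cells, against 169.6 and 227.1 in Med1+/+ cells, and its normalized change was 0.55 (SE 0.13, adjusted p = 0.00753, limma). Dimmer Neu1 probe sets, below the filter and not tested, went both ways. One had 5.6 and 1.3 in Med1-/- cells, against 26.1 and 22.4 in Med1+/+ cells. Another had 21.1 and 15.5, against 5.9 and 20.3, and was higher in Med1-/- cells after normalization. Hexa, the alpha subunit of beta-hexosaminidase, rose by 0.45 (adjusted p = 0.0367, limma), but was at 0.26 without Med1-/- replicate 1 (adjusted p = 0.180) and at 0.30 without Med1+/+ replicate 2 (adjusted p = 0.182). In the values as deposited, and when scaled on either set of control transcripts, the changes of Idua, Neu1 and Hexa were negative.

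Gaa, the acid glucosidase that breaks down glycogen, Glb1, the acid beta-galactosidase, Gusb, the beta-glucuronidase, and Man2b1, an alpha-mannosidase, had log2 changes of 0.15, 0.06, 0.06 and 0.13 (adjusted p from 0.263 to 0.698, limma). For Gaa, Gusb and Man2b1 the genotypes overlapped. A dimmer probe set of Gaa was called higher at 0.49, and that of Man2b1 was at -0.41 and did not pass.

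Lipid-handling members had 4 of 6 lower, 1 higher and 1 that did not pass (36.7% and 39.2% of all features were lower and higher). The 2 acid enzymes that act in sequence on sphingomyelin and ceramide moved in opposite directions. Asah1, the acid ceramidase, had 543.2 and 690.4 in Med1-/- cells, against 3651.7 and 4616.4 in Med1+/+ cells. Its fall was 4.19-fold with no overlap (log2 change -2.07, SE 0.11, n = 2 each; adjusted p = 3.43e-05, limma). Smpd1, the acid sphingomyelinase upstream of it, had 411.2 and 484.2 in Med1-/- cells, against 304.9 and 397.7 in Med1+/+ cells.

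Smpd1 and Tfeb were the only members, of the 7 that rose, with deposited signals higher on both Med1-/- arrays than on either Med1+/+ array. The normalized rise of Smpd1 was 2.31-fold (log2 change 1.21, SE 0.14, n = 2 each; adjusted p = 0.000254, limma). Smpd1 was called higher under 4 of 6 scalings and was -0.55 on the Bacillus subtilis controls. Lipa, the acid lipase that frees cholesterol and fatty acids from lipoproteins, had 107.2 and 132.2 in Med1-/- cells, against 417.7 and 512.6 in Med1+/+ cells (log2 change -1.0, SE 0.14, n = 2 each; adjusted p = 0.000632, limma). Its other 2 probe sets, at -0.57 and -0.52, did not pass, so that the call rests on a probe set that can match other transcripts.

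The proteins that export cholesterol from the lysosome are NPC1 and NPC2. Npc2, the soluble carrier, fell by 0.44 (adjusted p = 0.0114, limma), with its second probe set at -0.88, and Npc1, its membrane partner, was at 0.29 and did not pass (adjusted p = 0.106, limma). Psap, the precursor of the saposin activators, fell by 0.30 (adjusted p = 0.0352, limma), whereas its dimmer probe set was at -0.03 and did not pass. Without Med1+/+ replicate 1 neither passed, Npc2 being at -0.35 (adjusted p = 0.0680, limma) and Psap at -0.22 (adjusted p = 0.206), and without Med1-/- replicate 2 they were at -0.33 (adjusted p = 0.0630) and -0.25 (adjusted p = 0.143). Psap also lost its call without Med1-/- replicate 1 (-0.35, adjusted p = 0.0581). The falls of Npc2 and Psap turned to values of 0.18 and 0.13 with array medians set equal.

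Membrane proteins of the lysosome had 3 of 4 tested members lower and 1 higher (36.7% and 39.2% of all features were lower and higher). Lamp2, a major glycoprotein of the lysosomal membrane with a role in autophagy, had 692.8 and 682.7 in Med1-/- cells, against 3149.1 and 4610.4 in Med1+/+ cells. The fall was 3.46-fold (log2 change -1.79, SE 0.18, n = 2 each; adjusted p = 0.000152, limma). All 4 Lamp2 probe sets were called lower, with changes from -2.14 to -1.56. Scarb2, the LIMP-2 receptor that carries glucocerebrosidase to the lysosome, had 278.4 and 314.9 in Med1-/- cells, against 850.7 and 1370.6 in Med1+/+ cells (log2 change -1.04, SE 0.15, n = 2 each; adjusted p = 0.000707, limma).

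The probe sets of Scarb2 disagreed in size. The second one was at -0.02 and did not pass (adjusted p = 0.93, limma over probe sets). Lamp1, the close relative of Lamp2, changed much less, with 3422 and 4327 in Med1-/- cells, against 6021.5 and 8294.5 in Med1+/+ cells (log2 change -0.43, SE 0.10, n = 2 each; adjusted p = 0.00659, limma). The value of Lamp1 was 0.19 under equal array medians and 0.0017 under equal 75th percentiles. Mcoln1, the TRPML1 calcium channel, had 272.2 and 394.2 in Med1-/- cells, against 389.7 and 485.8 in Med1+/+ cells, and its normalized change was 0.44 (SE 0.12; adjusted p = 0.0115, limma), with its second probe set called higher at 0.79. In the values as deposited the change of Mcoln1 was -0.41, and without Med1+/+ replicate 2 it was 0.36 and did not pass (adjusted p = 0.0831, limma).

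Tfeb, the factor named for control of this gene set, was dim. Its deposited signal was 76 and 77.6 in Med1-/- cells, against 73.8 and 60.2 in Med1+/+ cells. The log2 change was 1.22 (SE 0.30, n = 2 each; adjusted p = 0.00887, limma), and under the other scalings it ranged from -0.69 to 1.24, with a call in 3 of 6. Among the 9 tested members with CACGTG in the window, 5 were lower, 1 higher and 3 not called, with changes from -2.12 for Ctsl to 0.44 for Mcoln1. Among the 15 tested members with a window but no such motif, 7 were lower, 6 higher and 2 not called, with changes from -1.79 for Lamp2 to 1.22 for Tfeb. The remaining 4 tested members had no window, with 3 lower and 1 not called, and changes from -2.83 to 0.29. Among all features 36.7% were lower and 39.2% higher, and no difference between these subsets was tested. Lamp1 and Mcoln1, whose E-boxes are printed above, thus had changes of opposite sign after quantile normalization. Under every other scaling the changes of Lamp1 and Mcoln1 had the same sign.

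**Figure D2:**
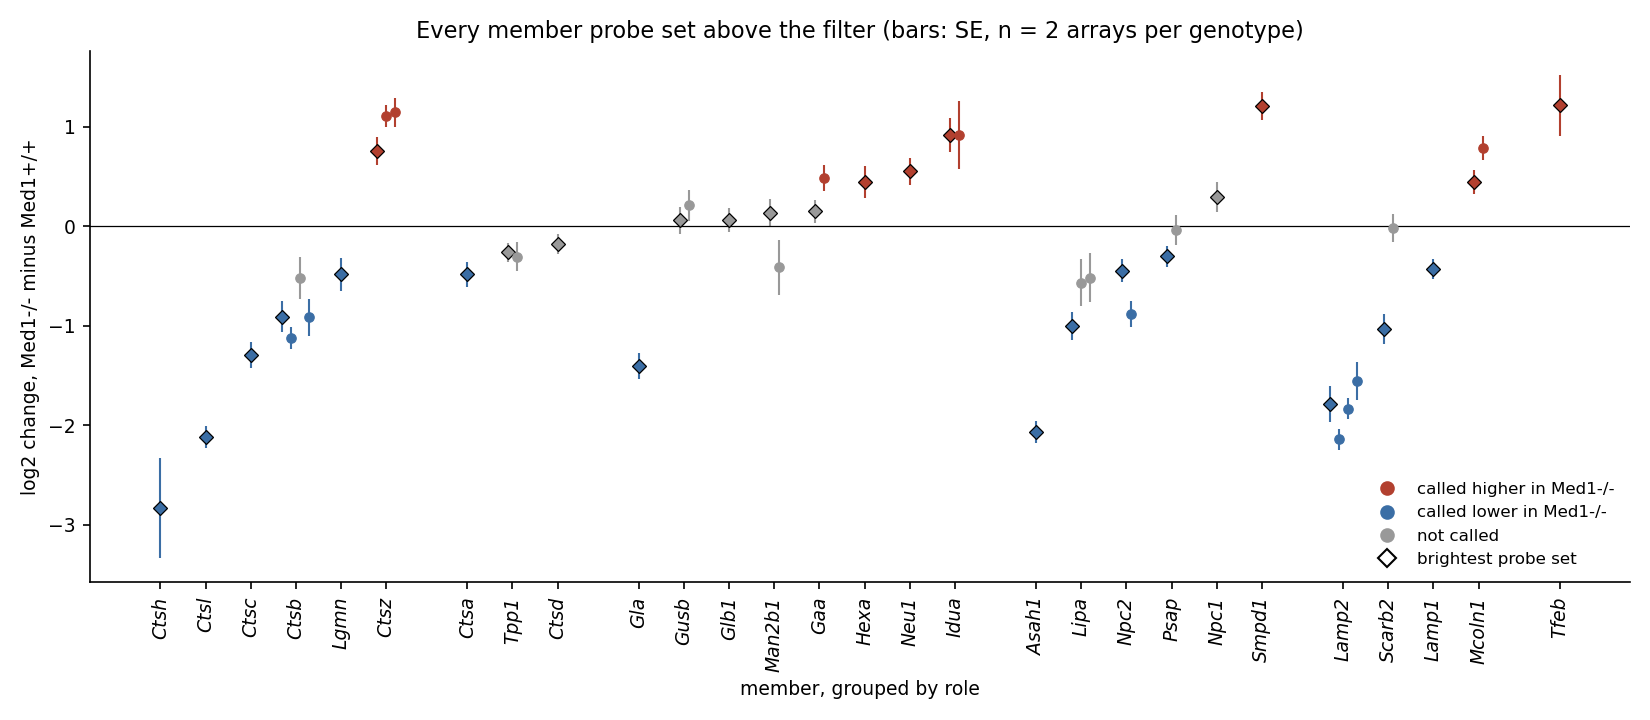
Log2 change, Med1-/- minus Med1+/+, of each of the 47 member probe sets past the filter, with bars for the SE (n = 2 arrays per genotype). Red marks are called higher in Med1-/-, blue marks called lower and grey marks not called, and diamonds are the brightest probe set of each member. The 4 probe sets of Lamp2 lie together below -1.5, and those of Scarb2 lie apart.

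When each probe set was fitted singly, 20 of the 47 past the filter were called lower (35.7% of all 13576 probe sets), 12 higher (36.3%) and 15 not called, where 72.1% of all probe sets were called in either direction. Without Med1+/+ replicate 2, 7 were called higher. Of 13 members with several probe sets past the filter, none had probe sets called in opposite directions, and for 5 (Ctsz, Idua, Npc2, Lamp2 and Mcoln1) every such probe set was called the same way.

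**Figure D3:**
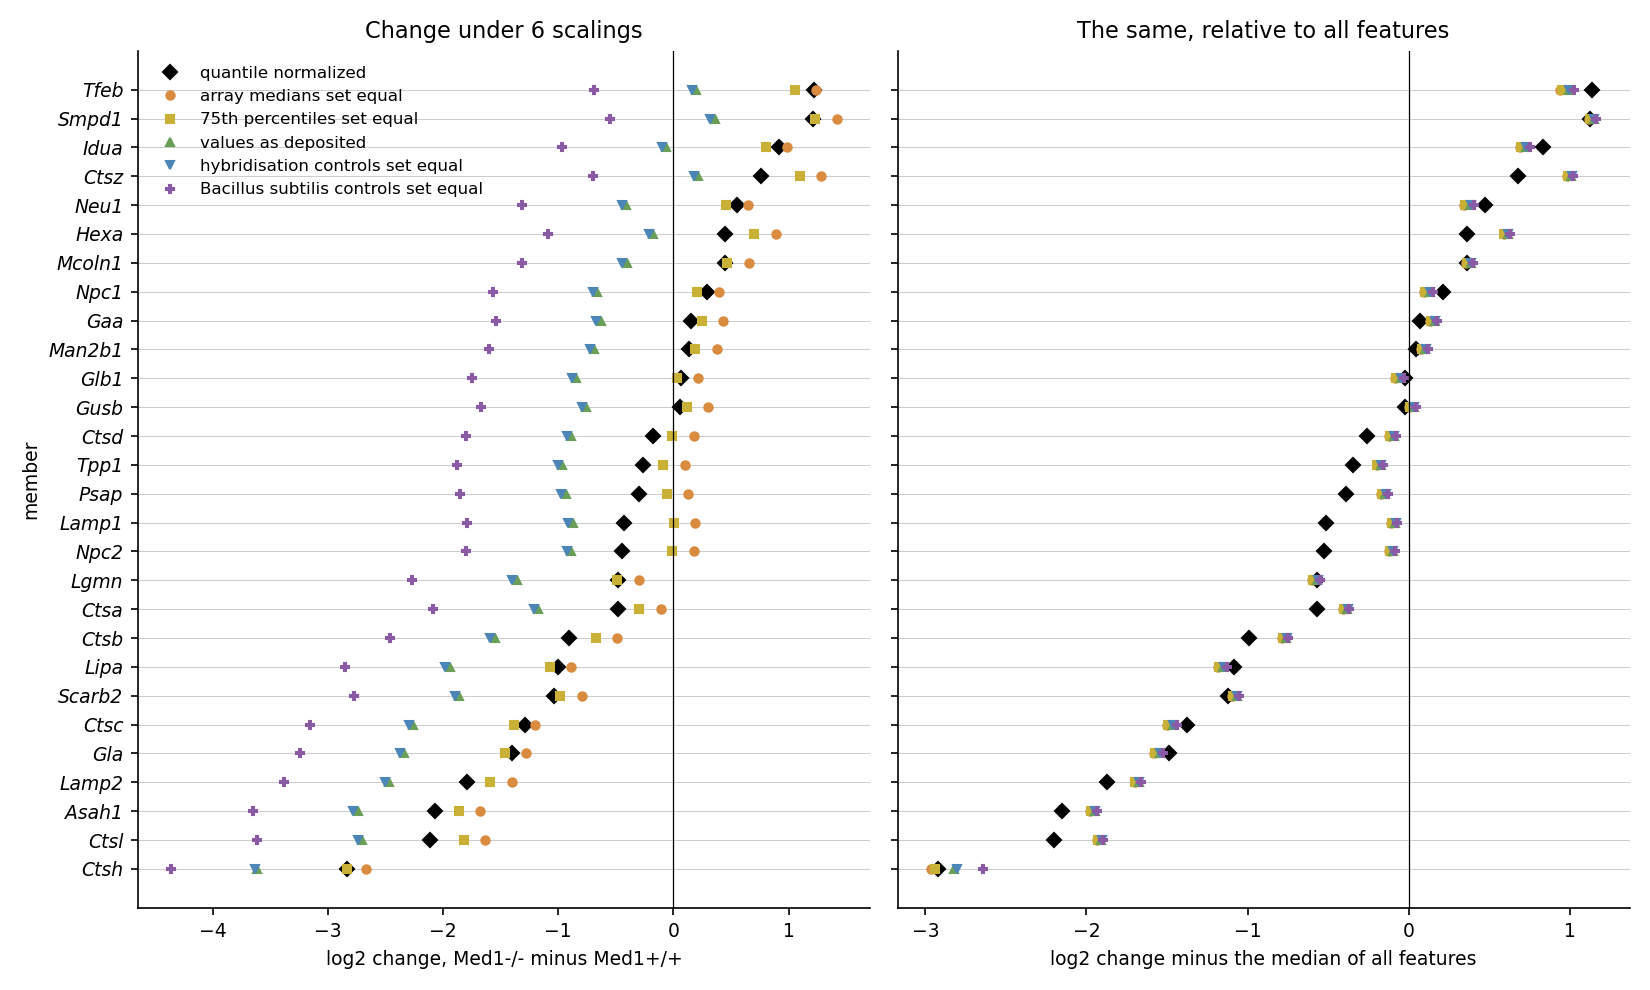
Log2 change of each member, Med1-/- minus Med1+/+, under 6 ways of scaling the arrays (left), and the same minus the median of all features (right); each mark is 1 scaling. Calls are not marked in the panels; 9 members were called lower under all 6 and none was called higher under all 6. On the right the order of the members is nearly kept.

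Gla and Lamp2 were the only X-linked genes among the tested members, and the X chromosome stood apart between the genotypes. Of 236 X-linked features 135 (57.2%) were lower and 55 higher in Med1-/- cells, with a median log2 change of -0.69, against 0.08 for all features. Xist, the RNA that coats an inactive X, had deposited signals of 211.2 and 159.6 in Med1-/- cells, against 6723.6 and 7499.6 in Med1+/+ cells on its brightest probe set. The Y-linked gene Eif2s3y was at 0.6 and 0.2 in Med1-/- cells, against 0.6 and 5.1 in Med1+/+ cells. The part of the X chromosome in the falls of Gla and Lamp2 was not tested. With the X-linked features left out, an alternative chosen after seeing the data, 13 members were called lower and 7 higher.

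Other genes of the lysosomal system also moved both ways, as did all features, of which 36.7% were lower and 39.2% higher. Of 16 subunits and accessory proteins of the vacuolar proton pump, which acidifies the lysosome, 8 were lower and 3 higher, with a median log2 change of -0.36, against 0.08 for all features. Atp6ap2, an accessory protein, fell by 1.98 (SE 0.12), the catalytic subunit gene Atp6v1a fell by 1.55 (SE 0.10) and the stalk subunit gene Atp6v1e1 fell by 1.16 (SE 0.12). Atp6ap2 is X-linked. These 3 were called lower under all 6 scalings (adjusted p from 4.16e-05 to 0.000156 after quantile normalization, limma).

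Genes of mannose 6-phosphate tagging and vesicle sorting had 9 lower and 6 higher of 21 tested (median -0.34). Among all features 36.7% were lower and 39.2% higher. Vps41, a subunit of the HOPS tethering complex, had 49.8 and 73.7 in Med1-/- cells, against 474 and 644.8 in Med1+/+ cells (log2 change -2.18, SE 0.12, n = 2 each; adjusted p = 3.76e-05, limma). Vps35, the core of the retromer complex that returns sorting receptors from endosomes, had 688.5 and 1031.9 in Med1-/- cells, against 4558.1 and 5644.1 in Med1+/+ cells, a log2 change of -1.93 (SE 0.10). Vps26a (-1.67) and Vps29 (-1.51), the other retromer subunits on the list, also fell, and were named after their values were seen. All 4 were called lower under all 6 scalings. Gga1, a Golgi adaptor for the mannose 6-phosphate receptors, rose by 2.15 (SE 0.20), a change that stayed positive in all 6 scalings with a call in 5.

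The list of other lysosomal enzymes and their activators had 10 higher and 9 lower of 28 tested (median 0.18), near the 39.2% and 36.7% of all features. It also held genes whose products are not lysosomal enzymes, among them Tpp2, Sumf1, Gm2a and Grn. The thioesterase gene Ppt2 (log2 change 1.96) was higher, and the beta-mannosidase gene Manba (-1.89) and the folate-trimming hydrolase gene Ggh (-1.84) were lower. Other lysosomal membrane proteins and transporters had 7 higher and 4 lower of 20 (median 0.24), with Sidt2 (2.06), a nucleic acid transporter, and Slc15a4 (1.62), a peptide and histidine transporter, higher and Mfsd1 (-1.30), a lysosomal transporter, lower. Manba, Ggh and Mfsd1 were lower in all 6 scalings, Ppt2 and Sidt2 were called higher in 5, and Slc15a4 ranged from -0.15 to 1.82.

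Genes of mTORC1 signalling on the lysosome had 5 lower and 3 higher of 12 (median -0.06). The related MiT/TFE factor genes Tfe3, Mitf and Tfec were on this list but not among the 12 tested. For this list and the 2 that follow, 36.7% of all features were lower and 39.2% higher. Tsc1 (-0.97), an mTORC1 inhibitor, and Lamtor3 (-0.96), a part of the Ragulator scaffold, were lower in all 6 scalings, and Tsc2 (0.90), the partner of Tsc1, was higher after quantile normalization and -0.95 on the Bacillus subtilis controls. Of 4 cathepsin inhibitor genes Serpinb6a (-2.11), a serpin, was lower in all 6 scalings. The cystatin genes Cstb (-0.35) and Cst3 (0.31) were called in opposite directions, with ranges over the scalings from -1.64 to 0.34 and from -1.20 to 0.78. Autophagy genes had 6 higher and 5 lower of 18 (median 0.00). The largest changes were rises of Map1lc3a (1.93), an LC3 gene, Ulk1 (1.5), the initiating kinase, and Atg4b (1.21), the LC3 protease. Map1lc3a was called higher in 5 of 6 scalings, and Ulk1 and Atg4b turned negative on the Bacillus subtilis controls (lowest values -0.34 and -0.60). The 5 that fell, Map1lc3b (-1.04), Atg5 (-0.91), Atg12 (-0.89), Uvrag (-0.75) and Atg3 (-0.74), were called lower in all 6 scalings.

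**Figure D4:**
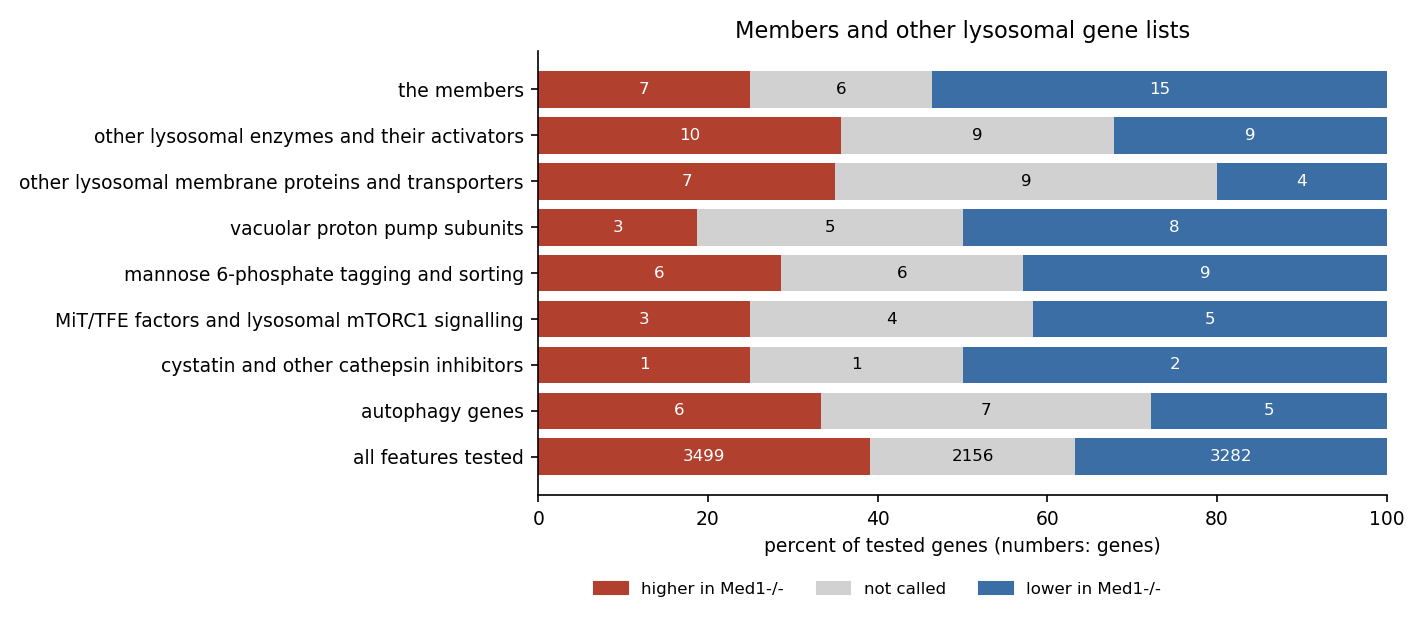
Share of tested genes called higher (red), not called (grey) or called lower (blue) in Med1-/- cells for the members, for 7 other lists of the lysosomal system and for all 8937 features tested; numbers inside the bars are genes. The members have 15 lower and 7 higher, and the list of other lysosomal enzymes and their activators has 9 lower and 10 higher.

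Markers of other cells with abundant lysosomes were mostly below the filter. Of 19 macrophage markers on the array 3 passed the filter and 1 (Cd14) was called, higher. Their summed deposited signal was 232.5 and 332.6 in Med1-/- cells, against 359.1 and 494.7 in Med1+/+ cells, and C1qa was at 0.5 and 0.9, against 1.2 and 1.0. Macrophage markers below the filter were not tested and went both ways after normalization. The mean log2 level of Cd68 was 4.14 in Med1-/- and 4.85 in Med1+/+ cells, and that of Adgre1 was 4.90 and 4.05. Cd14 had 95.2 and 120.6 in Med1-/- cells, against 132.1 and 164.2 in Med1+/+ cells (log2 change 0.55 after normalization), and its sign turned in other scalings, with a range from -1.35 to 0.60. Of 7 osteoclast markers on the array 2 passed the filter, with summed signals of 199.2 and 271.1 in Med1-/- cells, against 226.4 and 273.8 in Med1+/+ cells. Nfatc1, the transcription factor of osteoclast formation, was higher (log2 change 1.39, adjusted p = 0.000142, limma), with a range over the scalings from -0.47 to 1.48. Tnfrsf11a, the RANK receptor, was lower (-1.60, adjusted p = 0.00169, limma), under all 6 scalings. Its deposited signals were 13.3 and 16.8 in Med1-/- cells, against 80.2 and 108.4 in Med1+/+ cells. It passed the filter through its Med1+/+ signals, so the size of this fall is inexact. Of the osteoclast markers below the filter, which were not tested, Ocstamp was at 0.3 and 1.3, against 1.2 and 0.9. Acp5, also a lysosomal enzyme gene, had 15 and 30.7 in Med1-/- cells, against 3.4 and 3.4 in Med1+/+ cells. Oscar had 14.5 and 14.8, against 13 and 9. For Calcr and Itgb3 the genotypes overlapped after normalization.

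Fibroblast and epithelial markers moved beside the lysosomal genes. Of 13 fibroblast markers tested, 5 were higher and 4 lower, where 39.2% of all features were higher and 36.7% lower. Pdgfra (-2.95), Prrx1 (-2.89), S100a4 (-2.68) and Dcn (-1.99) were lower under all 6 scalings. Col1a1 (1.98) was higher under all 6, and Thy1 (1.34), Twist1 (1.23), Col3a1 (1.11) and Col1a2 (0.28) were higher after quantile normalization. Summed deposited signals of the 15 fibroblast markers on the array were 43637 and 52012.9 in Med1-/- cells, against 54019 and 62260.1 in Med1+/+ cells. Of 6 epithelial markers tested among 10 on the array, 5 were lower and 1 (Krt19) higher, with summed signals of 1461 and 2556.3 in Med1-/- cells, against 5207.8 and 7554.8 in Med1+/+ cells. Cdh1, which encodes E-cadherin, had 22.8 and 20 in Med1-/- cells, against 792.7 and 1206.4 in Med1+/+ cells (log2 change -4.50, adjusted p = 3.43e-05, limma). Krt18 (-4.45), Dsg2 (-4.39), Dsp (-3.92) and Krt8 (-1.96) were also lower, and these 5 were lower under all 6 scalings. Dsg2 had 9.5 and 11.6 in Med1-/- cells, against 361.5 and 543.8 in Med1+/+ cells. Dsp had 16 and 26.8, against 531 and 751.9. Dsg2 and Dsp passed the filter through their Med1+/+ signals, so the sizes of their falls are inexact. The Med1-/- signals of Cdh1 were also low, so the size of its fall is inexact too. Epcam and Ocln were below the filter. The part of these markers in the lysosomal changes was not tested.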

How the data were processed

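RNA was prepared for hybridisation with the 3′ IVT Express Kit, per the labels' protocols. For every array the deposited values are linear intensity values, 1 for each probe set. Background correction and probe summarisation by the authors are steps not given in the sources used here. Control probe sets (64) were kept out of the tests. Gene symbols follow the platform annotation, brought up to date by Entrez number with RefSeq (GRCm38.p6): 20380 probe sets had 1 symbol, 691 several and 1555 none.

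Signals were quantile normalized and taken as log2(signal + 1.7), the 10th percentile of the table. A filter removed the 9050 probe sets whose mean was below the 40th percentile. A gene with several was represented by the brightest, and all 13576 were also fitted singly. The genotypes were compared with limma 3.58.1 (R 4.3.3), using lmFit and two-sided eBayes with a trend on intensity, Benjamini-Hochberg adjustment over all features and a threshold of 0.05, on 2 residual and 4.65 prior degrees of freedom. The procedure was tested on simulated data. With 4 arrays, their number limits the precision.

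All members are named; array values are given for up to 3 called members per role with the largest change, and other lists give up to 3. Values of Lamp1, Ctsz, Med1, Xist, markers and the autophagy genes that fell were added. Members, lists and tests were chosen with earlier results of these data known. Probe sets ending in _s_at or _x_at, among them those of Lamp2, Lipa, Gaa and Mcoln1, can match other transcripts. Figures used matplotlib 3.10.9 in Python 3.11.15. Alternatives varied scaling, filter, pseudocount, probe set choice, variance model, arrays and thresholds.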

Additional observations from a re-analysis of the deposited data

How the results depend on the processing

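Direction and call were kept by 8 of the 28 tested members under every alternative in which they were tested, changed thresholds aside. These were Asah1, Ctsb, Ctsc, Ctsh, Ctsl, Gla, Lamp2 and Scarb2. Ctsb, at -0.91, fell short of the 2-fold threshold. Ctsh could not be tested with the 60th percentile filter or without either Med1+/+ array. The share of all features that kept direction and call in this way was not computed, so the count does not set the members apart. Lipa, lower under all 6 scalings, lost its call without probe sets ending in _s_at or _x_at (-0.57, adjusted p = 0.0611, limma). Lgmn and Hexa lost theirs with no filter (adjusted p = 0.0519 and 0.0621) and with no intensity trend (adjusted p = 0.0583 and 0.0786). The causes were not tested. In the values as deposited 0 members were called higher, the median of the members was -0.89, 4213 features were called, 0 member probe sets were called higher, and the changes of Hexa (-0.18), Gaa (-0.63), Glb1 (-0.84), Gusb (-0.76), Idua (-0.0653), Man2b1 (-0.69), Neu1 (-0.41), Npc1 (-0.66) and Mcoln1 (-0.41) were negative. On the hybridisation controls 1 member was called higher and 23 lower (1 and 38 probe sets), the median was -0.93, and negative values were found for Hexa (-0.22), Gaa (-0.67), Glb1 (-0.88), Gusb (-0.80), Idua (-0.10), Man2b1 (-0.73), Neu1 (-0.45), Npc1 (-0.70) and Mcoln1 (-0.45). On the Bacillus subtilis controls 0 were called higher and 27 lower (0 and 46 probe sets), the median was -1.80, and the changes were -0.70 for Ctsz, -1.09 for Hexa, -1.54 for Gaa, -1.75 for Glb1, -1.67 for Gusb, -0.97 for Idua, -1.60 for Man2b1, -1.31 for Neu1, -0.55 for Smpd1, -1.57 for Npc1, -1.32 for Mcoln1 and -0.69 for Tfeb. With array medians set equal 9 were called lower, the median was 0.18, and Ctsd (0.18), Tpp1 (0.10), Psap (0.13), Npc2 (0.18) and Lamp1 (0.19) were positive. With 75th percentiles set equal the median was -0.0102 and Lamp1 was at 0.0017. With the mean of a gene's probe sets Man2b1 was at -0.14. A threshold of 0.01 gave 7 probe sets higher. Requiring 2-fold gave 2 members higher and 8 lower (4 and 12 probe sets) and 3693 features. With 1 array left out, the lone array of its genotype being assumed to vary like the others, 5 to 7 members were called higher and 9 to 13 lower, 7 to 12 probe sets higher and 15 to 21 lower, 5849 to 6577 features were called, the median ran from -0.32 to -0.21, and Gusb ran from -0.0784 to 0.20 and Man2b1 from -0.0188 to 0.28. The labels number the arrays of each genotype 1 and 2 without saying that a number marks a shared origin; deviations of same-numbered arrays correlated at 0.285, and with a replicate block 8 members were called higher and 16 lower, Ctsd (adjusted p = 0.0452, limma) and Npc1 (adjusted p = 0.0457) being added, with 12 probe sets higher and 25 lower and 7378 features called.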
